A study of Mus musculus with 6 samples.

Results

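Ribosomes are built in the nucleolus, where a long precursor RNA is transcribed by RNA polymerase I, chemically modified, cut and folded onto ribosomal proteins with the help of assembly factors that do not stay in the finished particle. Small nucleolar ribonucleoproteins (snoRNPs) guide the modifications, a large early particle called the small subunit processome releases the future 40S subunit, and a second set of factors matures the 60S subunit. A resting B cell makes few ribosomes, and lymphocytes enlarge the nucleolus when they are activated to grow and divide. The transcription factor MYC is a known regulator of many of these genes.

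The 50 genes described here encode such nucleolar assembly factors. They were taken by name from a list, and all 50 of them were among the 23420 gene symbols of the files. Transcript levels were measured by RNA-seq in splenic B cells of Tlr9-/- MRL/lpr mice, a strain that carries the lpr mutation of Fas and develops a lupus-like disease. The mice were 5 to 7 weeks old and had a wild-type Tlr7. Their Tlr7 genotype is written as that of males. B cells were enriched by bead depletion of cells with T cell and myeloid surface markers or CD43, a selection that does not target red cells. Cells of 3 mice were cultured for 4 h with CL097, a TLR7 agonist, at 5 µg/ml (3 libraries) or left unstimulated (3 libraries). The TLR9 deficiency was shared by both groups, so nothing here separates its effect from that of the agonist. The comparison asks how B cells change their transcripts when TLR7 is engaged in the absence of TLR9.

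Levels are given in CPM, the reads of a gene scaled to a fixed library total, and the deposited values were log2 CPM after quantile normalization between libraries. After that step a value is a relative level and only roughly a gene's share of the reads of a library. Shares given below are shares of these normalized CPM. A change in the total RNA of a cell was not measured. Depth is unknown, because the values used here are not counts. Fewer cells of a type and less RNA per cell cannot be told apart in such bulk samples. Differences are CL097 minus unstimulated on the log2 CPM scale, from limma with replicate numbers blocked, and a gene was called at an adjusted p under 0.05 and a difference over 0.5. Each library held 10906 to 10997 genes of 1 CPM or more. All 10 B cell markers passed the filter on low values. Of these 10 markers 7 were called lower, among them Cd79a, from 1880 ± 154 to 452 ± 42.9 CPM (SD, n = 3), and their summed level went from 6847 to 7796 CPM down to 3141 to 3759 CPM. Both libraries of number 1 stood apart in markers of other cells. This was widest for erythroid markers, whose summed level was 27.4 CPM before and 47.5 CPM after CL097, against 803 to 935 CPM and 1166 to 2031 CPM in numbers 2 and 3. Of 4 tested erythroid markers 3 were called higher after CL097, and the listed alpha globin genes were at the floor of the files in all 6 libraries. Number 1 was also the lowest in monocyte and macrophage markers, with 94.7 CPM before and 64.0 CPM after CL097, against 273 to 448 CPM and 130 to 232 CPM in the other numbers, and their sum was lower after CL097 in all 3 pairs. In neutrophil markers it had 24.9 and 14.4 CPM, against 54.8 to 61.4 CPM and 34.0 to 43.2 CPM. The summed plasma cell markers went from 942 to 1029 CPM up to 2097 to 2309 CPM, with 1 of 6 tested called higher (Irf4, which activated B cells also express) and 3 called lower. The summed T cell markers lay between 6.57 and 11.3 CPM in all libraries.

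Assembly factor transcripts rose after CL097. Of the 50 genes, all of which passed the filter on low values, 48 were called higher, 0 were called lower and 2 missed the fold threshold, against a background of 25.9% of all 11844 tested genes called higher and 25.8% called lower. Without the replicate block 48 were again higher (24.0% of all tested genes) and 0 lower (23.6%). The median difference was 1.42 on the log2 scale, or 2.67-fold, beside a median of 0.002 over all genes tested. Quantile normalization gives all libraries matched distributions. A median near 0 over all genes and near-equal shares called higher and lower were therefore largely set by it. Differences ran from 0.33 for Utp3 to 2.45 for Rrp1b, that is, from 1.26-fold to 5.48-fold. More than 2-fold, 45 of 50 were called higher (13.9% of all tested genes), and more than 4-fold, 3 of 50 (2.94%). In all 50 the 3 CL097 libraries lay above the 3 unstimulated ones, which held for 33.4% of all tested genes.

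The 50 genes together took a larger share of the normalized CPM. They made up 0.894%, 0.849% and 0.872% of all CPM in unstimulated numbers 1 to 3, and 2.36%, 2.23% and 2.10% in the CL097 libraries. The ratio within a pair was 2.64 in number 1, 2.63 in number 2 and 2.41 in number 3. The median difference over the 50 genes was 1.48, 1.45 and 1.38 in these pairs. With number 1 left out, 48 of the 50 were called higher. The part of the B cell, plasma cell, erythroid and myeloid markers in these values was not tested. All 3 differences were above 0 for each of the 50 genes, and the smallest was 0.23. Number 3 gave the smallest difference for 32 of the 50 genes and number 1 the largest for 30. The median SE was 0.07, and the median coefficient of variation between libraries was 4.93% in unstimulated and 6.51% in CL097 cells.

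Promoter sequences are shown first. The E-box CACGTG, the site that MYC and MAX are known to bind, was looked for in them. RefSeq windows from 250 bases before to 50 after the start (GRCm38.p6) were matched for 42 of the 50 genes, 48 windows in all. CACGTG, which reads the same on both strands, occurred in 9 of 48 windows (18.8%), beside 10.3% of 11286 windows of tested genes and 7.15% of all 32851 windows. The 9 windows are aligned on the motif in capitals, with up to 12 bases on either side, in the direction of the gene and cut at the end of the RefSeq window.

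Nop2: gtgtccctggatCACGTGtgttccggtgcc
Nol11: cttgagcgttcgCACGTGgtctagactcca
Utp18: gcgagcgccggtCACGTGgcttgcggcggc
Pes1: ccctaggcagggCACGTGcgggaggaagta
Wdr43: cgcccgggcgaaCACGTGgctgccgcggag
Ltv1: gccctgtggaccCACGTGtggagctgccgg
Utp20: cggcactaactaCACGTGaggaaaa
Pno1: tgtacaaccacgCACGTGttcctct
Mybbp1a: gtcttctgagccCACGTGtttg

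Counting the first transcribed base as 1 and the base before it as -1, the motif began at -60 in Nop2, -43 in Nol11 and -20 in Utp18. It began at 3 in Pes1, 18 in Wdr43, 29 in Ltv1, 38 in Utp20 and in Pno1, and 41 in Mybbp1a, inside the transcribed part. On the plus strand the printed stretches are chr6:125131811-125131840 (Nop2), chr11:3963965-3963994 (Pes1), chr17:71616220-71616249 (Wdr43) and chr11:72441355-72441376 (Mybbp1a). On the minus strand they are chr11:107189407-107189436 (Nol11), chr11:93885769-93885798 (Utp18), chr10:13193092-13193121 (Ltv1), chr10:88826765-88826789 (Utp20) and chr11:17211540-17211564 (Pno1). These 9 genes rose by between 0.57 (Pes1) and 1.88 (Nop2) on the log2 scale. The windows of the largest rises, Rrp1b, Rrp9 and Bysl, did not contain these letters, and neither did those of the 2 genes that were not called, Rrp1 and Utp3. Other short motifs were counted on both strands in the same 48 windows. GGAAGTG, one ETS-type motif, occurred in 18 (37.5%, beside 15.1% of the windows of tested genes) and CACGCG in 14 (29.2%, beside 17.2%). GGGCGG, the GC box, occurred in 35 (72.9%, beside 61.8%) and CCAAT in 13 (27.1%, beside 37.9%). TATAAA occurred in 4 (8.33%, beside 7.08%) and TTTCC in 35 (72.9%, beside 59.1%). The motifs were chosen with these data known, and a match is no evidence of binding.

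The stretches before the start of 4 of these genes are given, as far as no annotated exon overlaps them and at most 200 bases. Bysl (rank 3 by rise) and Nop2 (rank 4) stand beside the 2 genes that were not called. Rrp1b and Rrp9, which rose more, are not shown. The 4 stretches therefore do not stand for large and small rises in general. The only capitals mark the E-box of Nop2. The stretches lie at chr6:125131683-125131882 on the plus strand (Nop2), chr17:47611493-47611581 on the minus strand (Bysl), chr10:78413044-78413243 on the minus strand (Rrp1) and chr5:88554262-88554461 on the plus strand (Utp3).

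Nop2: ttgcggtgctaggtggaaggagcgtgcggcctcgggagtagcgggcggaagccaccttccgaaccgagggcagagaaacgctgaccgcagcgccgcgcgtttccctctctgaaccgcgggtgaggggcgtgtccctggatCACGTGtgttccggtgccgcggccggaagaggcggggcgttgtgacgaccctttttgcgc
Bysl: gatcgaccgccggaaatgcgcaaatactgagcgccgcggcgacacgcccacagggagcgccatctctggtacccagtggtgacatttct
Rrp1: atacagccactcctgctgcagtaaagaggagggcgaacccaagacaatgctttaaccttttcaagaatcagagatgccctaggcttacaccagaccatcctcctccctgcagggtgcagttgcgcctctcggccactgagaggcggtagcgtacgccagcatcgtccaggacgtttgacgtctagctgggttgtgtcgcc
Utp3: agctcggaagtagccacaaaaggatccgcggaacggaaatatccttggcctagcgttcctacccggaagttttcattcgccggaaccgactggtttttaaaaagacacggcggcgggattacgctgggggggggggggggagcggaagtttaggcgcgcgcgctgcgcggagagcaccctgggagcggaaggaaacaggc

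Myc itself, whose protein binds the E-box, was read in the same libraries. It stood at 268, 232 and 229 CPM in unstimulated numbers 1 to 3 and at 1561, 1758 and 1542 CPM after CL097. The groups did not overlap, and the difference was 2.74 (SE 0.08, adjusted p = 1.07e-06), larger than that of any of the 50 assembly factors. The part of MYC in the rise of the assembly factors was not tested.

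**Figure D1:**
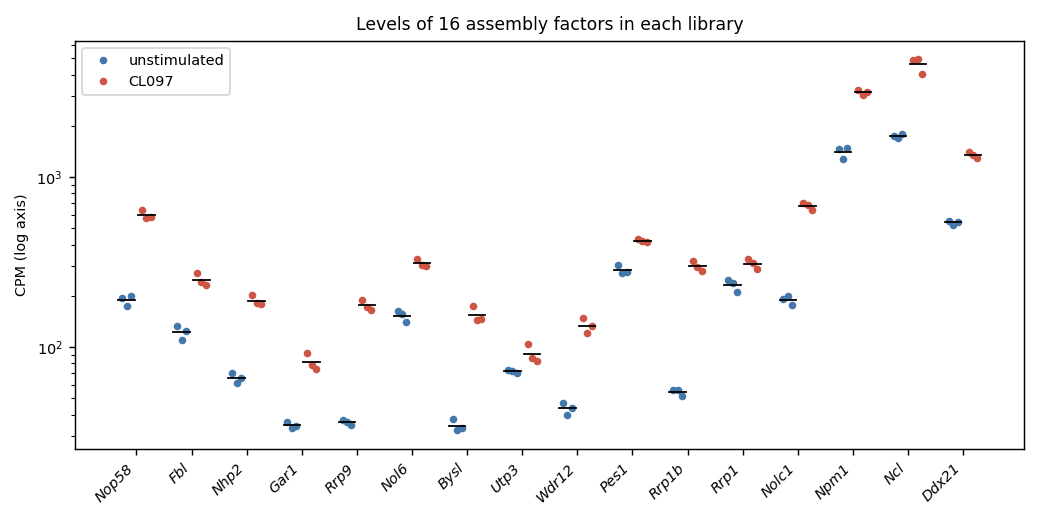
Level of 16 assembly factors in each of 3 unstimulated and 3 CL097 libraries, in CPM on a log axis; points are libraries and bars are group means. For every gene shown all CL097 points lie above all unstimulated points, with the narrowest gaps for Utp3, Pes1 and Rrp1.

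The core of the box C/D snoRNP, which places 2'-O-methyl groups on ribosomal RNA, rose in all of its 3 proteins that were listed. Nop58 (chromosome 1, 59684971 to 59719044, plus strand), a scaffold of the particle, stood at 195, 174 and 201 CPM in unstimulated and 641, 575 and 579 CPM in CL097 libraries. The difference was 1.66 (SE 0.06, adjusted p = 1.86e-06), or 3.16-fold. Its relative and partner Nop56 rose almost as much, by 1.64 (SE 0.06). Fbl (chromosome 7, 28169710 to 28179269, plus strand), the methyltransferase fibrillarin, stood at 133, 111 and 124 CPM and at 273, 240 and 231 CPM. The enzyme rose by 1.02 (SE 0.07, adjusted p = 1.43e-05), the smallest rise of the 3. The difference of Nop58 exceeded that of Fbl by 0.64 ± 0.03 (SD over 3 pairs). Nop56 exceeded Fbl by 0.62 ± 0.11, and both were above Fbl in 3 of 3 pairs. An exact two-sided permutation test over pairs gave p = 0.25 for each, the smallest p that 3 pairs allow. Between Nop58 and Nop56 the difference was 0.02 ± 0.09.

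The box H/ACA snoRNP, which converts uridine to pseudouridine, showed a similar rise. Nhp2 (chromosome 11, 51619735 to 51623714, plus strand), a small RNA-binding subunit, stood at 69.9, 61.1 and 65.9 CPM in unstimulated and 203, 181 and 179 CPM in CL097 libraries. The difference was 1.51 (SE 0.07, adjusted p = 2.61e-06). Dkc1, the pseudouridine synthase dyskerin, rose by 1.32 (SE 0.06). Gar1 (chromosome 3, 129824912 to 129831396, minus strand), a further core subunit, rose least, from 36.2, 33.4 and 34.2 CPM to 92.2, 78.4 and 74.2 CPM, a difference of 1.23 (SE 0.08, adjusted p = 1.50e-05). The spread of these 3 genes was narrow, from 2.35-fold to 2.85-fold.

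Early factors of the small subunit processome bind the precursor RNA while it is still being made, and all 9 listed were called higher, with a median difference of 1.37. Rrp9 (chromosome 9, 106475963 to 106485424, plus strand), a protein of the U3 snoRNP, rose most. It stood at 37.3, 36.3 and 34.9 CPM in unstimulated and 190, 172 and 165 CPM in CL097 libraries. The difference was 2.28 (SE 0.07, adjusted p = 1.08e-06), or 4.85-fold, the second largest of the 50. The module linked to transcription of ribosomal DNA moved within a narrower range: Wdr75 by 1.72, Wdr43 by 1.56, Heatr1 by 1.38, Nol11 by 1.21 and Utp15 by 1.15. Utp18 and Utp6, of a second module, rose by 1.37 and 1.21. Nol6 (chromosome 4, 41114427 to 41124455, minus strand) rose least, from 162, 156 and 141 CPM to 329, 305 and 298 CPM, a difference of 1.02 (SE 0.06, adjusted p = 8.12e-06).

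Among 10 other factors of the 40S pathway 9 were called higher (median 1.46), with differences from 0.33 to 2.16. Bysl (chromosome 17, 47599331 to 47611492, minus strand), which encodes bystin, a factor of late 40S precursors, stood at 37.7, 32.4 and 33.4 CPM in unstimulated and 174, 144 and 147 CPM in CL097 libraries. The difference was 2.16 (SE 0.07, adjusted p = 1.16e-06), or 4.48-fold. An exon of it overlaps one of Ccnd3 on the other strand, which stood at 79.1 ± 7.54 and 91.5 ± 25.4 CPM and was not called. Next came Nol10 (1.69), Rcl1 (1.67), which is needed for cleavage of the precursor, and Pno1 (1.51), which holds the 3' end of the future 18S RNA. Noc4l rose 2.83-fold and its partner Nop14 2.55-fold, the export factor Rrp12 2.65-fold and Utp20, a very large scaffold protein, 2.08-fold. Ltv1, a factor of cytoplasmic 40S maturation, rose by 0.77 (SE 0.08, adjusted p = 1.08e-04).

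Utp3 (chromosome 5, 88554462 to 88556090, plus strand, 1 exon), a further processome factor also known as SAS10, was not called and gave the smallest difference of the 50. It stood at 73.5, 71.8 and 70.5 CPM in unstimulated and 104, 86.0 and 82.5 CPM in CL097 libraries. The groups did not overlap, but the difference of 0.33 (SE 0.08, adjusted p = 0.00966) was under the fold threshold. Number 1 gave 0.51 and numbers 2 and 3 gave 0.26 and 0.23.

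**Figure D2:**
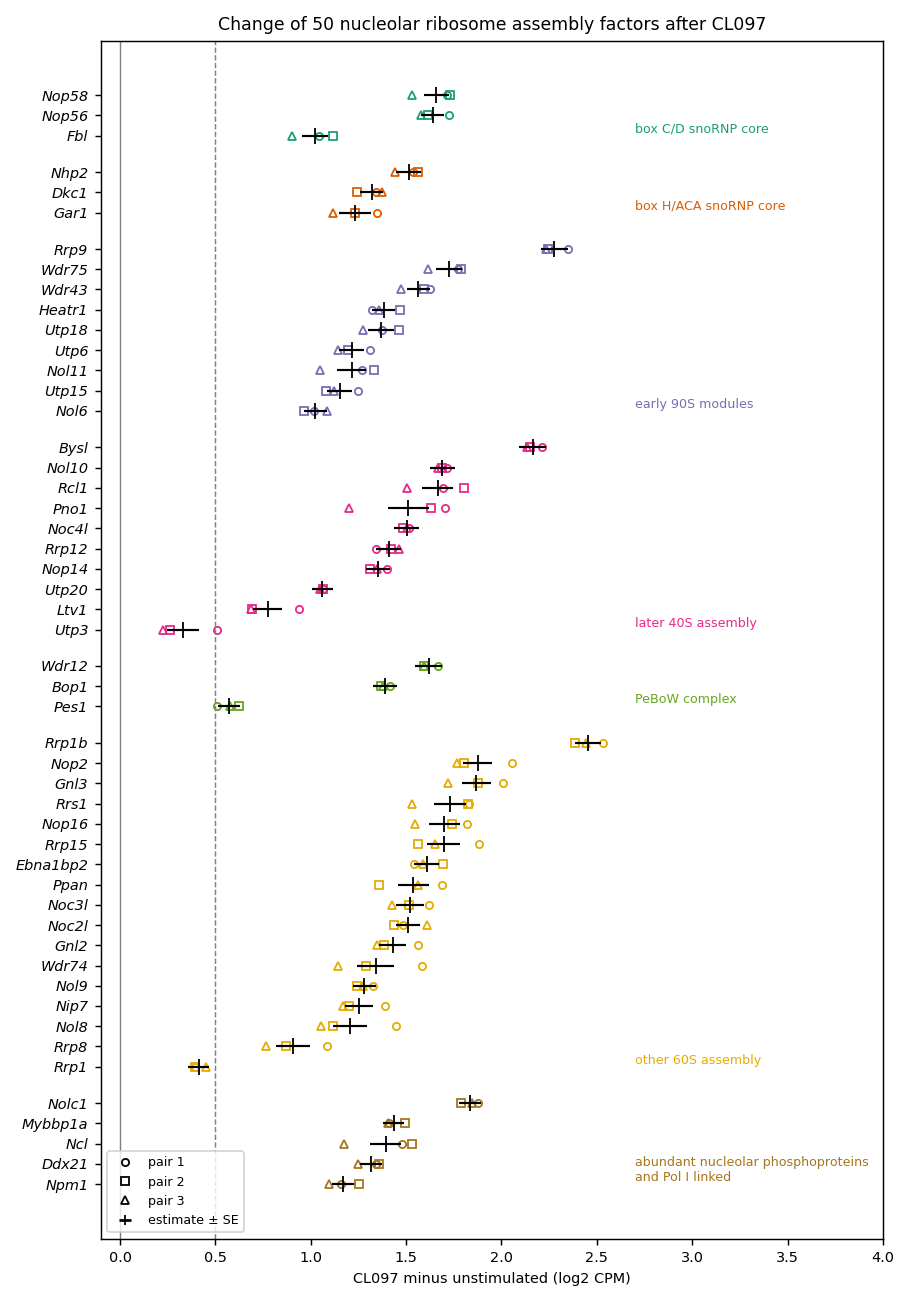
CL097 minus unstimulated difference of all 50 assembly factors on the log2 CPM scale, grouped by role, with the 3 pairs as open symbols and the estimate with its SE in black; the dashed line marks the fold threshold of 0.5. Estimates of 48 genes lie to the right of the dashed line, and those of Rrp1 and Utp3 lie between it and 0.

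The PeBoW complex, which is named after its subunits Pes1, Bop1 and Wdr12 and acts on the 60S precursor, rose unevenly. Wdr12 (chromosome 1, 60069785 to 60098645, minus strand) stood at 46.7, 40.1 and 43.8 CPM in unstimulated and 148, 121 and 132 CPM in CL097 libraries, a difference of 1.62 (SE 0.07, adjusted p = 2.43e-06). Bop1 rose by 1.39 (SE 0.06). Pes1 (chromosome 11, 3963975 to 3980004, plus strand) went from 305, 273 and 277 CPM to 434, 421 and 413 CPM, a difference of only 0.57 (SE 0.06, adjusted p = 1.14e-04), or 1.48-fold. It was the called gene nearest to the fold threshold, and Rrp1, with 0.41, was the nearest below it. Bop1 exceeded Pes1 by 0.82 ± 0.08 and Wdr12 exceeded Pes1 by 1.05 ± 0.10 (SD over 3 pairs), in 3 of 3 pairs each (exact two-sided permutation p = 0.25, the smallest possible).

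Of 17 other factors of the 60S pathway 16 were called higher, with a median of 1.52, and the group held both the largest rise of the 50 and a gene that was not called. These 2 are relatives. Rrp1b (chromosome 17, 32036100 to 32062865, plus strand) stood at 55.7, 56.2 and 51.7 CPM in unstimulated and 322, 294 and 281 CPM in CL097 libraries, a difference of 2.45 (SE 0.07, adjusted p = 9.76e-07). Rrp1 (chromosome 10, 78400384 to 78413043, minus strand) stood at 249, 239 and 211 CPM and at 327, 313 and 288 CPM, a difference of 0.41 (SE 0.06, adjusted p = 5.66e-04), under the fold threshold. Rrp1b exceeded Rrp1 by 2.04 ± 0.09 in 3 of 3 pairs (exact two-sided permutation p = 0.25, the smallest possible). In CPM, Rrp1b lay below Rrp1 before stimulation, with 54.5 ± 2.45 against 233 ± 19.9 CPM (SD, n = 3). After it the 2 genes overlapped, with 299 ± 21.2 and 310 ± 19.5 CPM. Per kilobase of annotated exon Rrp1b stayed below Rrp1. It had 7.08 against 69.8 CPM per kb in unstimulated and 38.8 against 92.8 CPM per kb in CL097 libraries. Hsf2bp, whose exons overlap those of Rrp1b on the other strand, was under the filter, with 0.143 and 0.0908 CPM.

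The other 60S factors lay between these. The RNA methyltransferase gene Nop2 rose by 1.88 and Gnl3, which encodes the GTPase nucleostemin of dividing cells, by 1.87. Rrs1, which helps to load the 5S ribonucleoprotein, rose by 1.73, Nop16 and Rrp15 by 1.70 each and Ebna1bp2 by 1.61. Ppan (1.54), Noc3l (1.52) and Noc2l (1.51) formed the middle of the group. The GTPase gene Gnl2 followed with 1.43, and Wdr74 with 1.34. Nol9, a polynucleotide kinase that acts on the spacer between the 5.8S and 28S RNAs, rose 2.43-fold, Nip7 2.38-fold and Nol8 2.30-fold. Rrp8, a base methyltransferase of 28S RNA, rose least among those called, by 0.91 (SE 0.09, adjusted p = 9.91e-05).

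The group of abundant nucleolar proteins rose as well. Ncl, Npm1, Ddx21 and Mybbp1a of this group had more CPM in unstimulated libraries than any other of the 50 genes, but Nolc1 did not. Nolc1 (chromosome 19, 46075863 to 46085530, plus strand), a chaperone of snoRNPs, rose most, from 190, 198 and 177 CPM to 698, 686 and 636 CPM, a difference of 1.84 (SE 0.06, adjusted p = 1.07e-06). Ncl (chromosome 1, 86344719 to 86359400, minus strand), which encodes nucleolin, had the highest CPM of the 50 genes. It stood at 1749, 1703 and 1780 CPM in unstimulated and 4874, 4918 and 4012 CPM in CL097 libraries, with CL097 number 3 the lowest, and the difference was 1.39 (SE 0.08, adjusted p = 7.55e-06). Ddx21 (chromosome 10, 62580251 to 62602281, minus strand), an RNA helicase that works with RNA polymerases I and II, stood at 551, 525 and 547 CPM and at 1398, 1343 and 1300 CPM. The helicase gene rose by 1.32 (SE 0.06, adjusted p = 2.29e-06). Npm1 (chromosome 11, 33152287 to 33163206, minus strand), nucleophosmin, went from 1454, 1277 and 1473 CPM to 3252, 3042 and 3143 CPM, a difference of 1.17 (SE 0.06, adjusted p = 4.42e-06). Mybbp1a, a nucleolar protein first found as a MYB partner, rose by 1.44 (SE 0.06).

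Per kilobase of annotated exon, Npm1 stood highest, at 526 CPM per kb in unstimulated and 1180 CPM per kb in CL097 libraries. Ncl followed with 171 and 452, and Ddx21 with 104 and 260 CPM per kb. The lowest level was that of Wdr12, 3.64 and 11.2 CPM per kb, whose annotated exons add up to 11955 bases. These genes kept their places after CL097 when only exons of the basic annotation were counted, but other ranks depended on that choice. Gnl3 went from rank 38 to rank 12 and Fbl from rank 28 to rank 6.

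**Figure D3:**
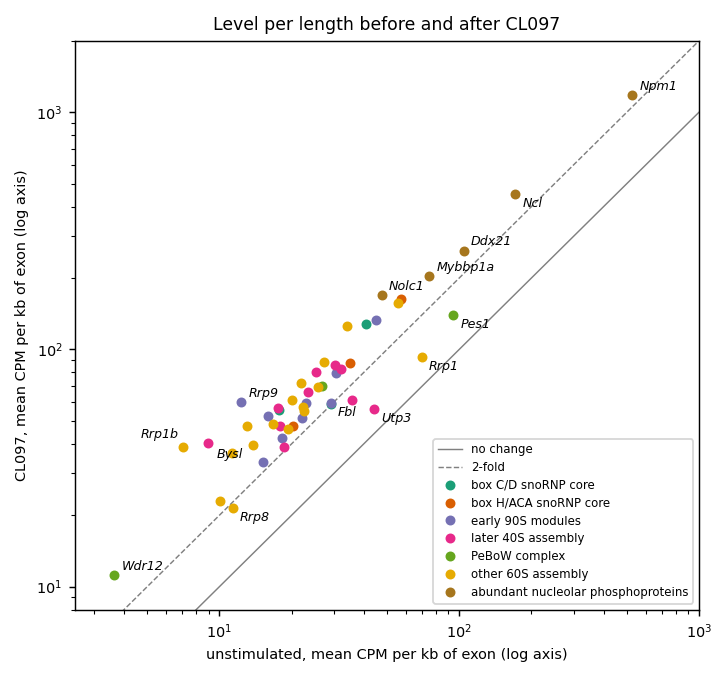
Mean level of the 50 assembly factors per kilobase of exon in unstimulated (x) and CL097 (y) libraries, in CPM per kb on log axes, coloured by role; the full line marks equal levels and the dashed line a 2-fold rise. All points lie above the full line, and 5 genes, among them Pes1, Rrp1 and Utp3, lie below the dashed one.

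Some features that the choice of genes did not use were counted. The genes lie on 18 chromosomes, with at most 8 on one (chromosome 11). Annotated snoRNA genes, 21 in all, lie inside 7 of the 50 genes on the same strand (14.0%), beside 244 of 11130 tested genes with an annotation (2.19%). The hosts were Nop56, Nop58, Dkc1, Wdr43, Ppan, Gnl3 and Ncl, and they rose by between 1.32 and 1.87 (median 1.56), against a median of 1.39 for the other 43. The median over all 244 tested snoRNA hosts was 0.30. Exons of 19 of the 50 genes overlap an exon on the other strand. The strand setting of the counting is not given in the sources used here, so reads of such partners may be mixed. Of the 31 genes with no such overlap 29 were called higher, with a median of 1.37, and the 19 with an overlap had a median of 1.51. For 15 of these 19 a partner had values in the files. Of the 13 partners that passed the filter 6 were called lower, 2 higher and 5 not. Over all tested genes 25.8% were called lower and 25.9% higher. The largest fall was that of Spns2, opposite Mybbp1a, by 3.83 on the log2 scale (SE 0.19). Lgals8, opposite Heatr1, fell by 1.45 on the log2 scale, and Parp3, opposite Rrp9, fell by 1.09. Idh3b, opposite Nop56, had a difference of 0.03 and was not called. Samd11, opposite Noc2l, rose by 1.73 (SE 0.40), at 2.48 ± 0.935 CPM in unstimulated cells.

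Most genes on 5 further lists of the pathway were called higher too, beside the background of 25.9%. Of 50 further genes listed as factors of the processome and the 40S subunit 41 were called higher and 2 lower, with a median of 1.05. Dimt1, an adenosine dimethyltransferase of 18S RNA, rose by 1.96 (SE 0.11) and Cirh1a, the gene for UTP4, by 1.90 (SE 0.06). Nol7 fell by 0.64 on the log2 scale (SE 0.07), from 146 ± 4.89 to 93.3 ± 2.65 CPM, and Wdr5b, at 5.16 ± 0.462 CPM in unstimulated cells, by 0.87 (SE 0.19). The place of Wdr5b in this pathway is uncertain. Of 53 further 60S factors 42 were called higher and 0 lower, with a median of 1.09. Nle1, a ligand of the large assembly ATPase, rose by 1.99 (SE 0.08) and Mrto4, a placeholder for a stalk protein, by 1.95 (SE 0.09).

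Of 13 factors that assemble snoRNPs 11 were called higher and 0 lower, with a median of 1.35. The largest rises were those of Shq1 (2.19, SE 0.17) and Naf1 (2.18, SE 0.12), both chaperones of the box H/ACA particle. Of 17 genes of the RNA exosome and of precursor trimming 11 were called higher and 0 lower (median 0.79). The nuclease Dis3 led with 1.75 (SE 0.08), followed by Exosc6 (1.55, SE 0.10). Of 21 genes of RNA polymerase I transcription 15 were called higher and 0 lower (median 0.97). Cd3eap, a subunit of that polymerase, rose to 75.7 ± 10.2 CPM (2.22, SE 0.09) and Polr1b, its second largest subunit, from 64.6 ± 1.40 to 282 ± 18.6 CPM (2.12, SE 0.07).

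Structural proteins of the ribosome did not share this pattern. Of 78 tested genes of cytosolic ribosomal proteins 3 were called higher, 1 lower and 74 were not called, with a median of -0.11 and quartiles of -0.22 and 0.03. Their summed level was 66290 to 75519 CPM in unstimulated and 62901 to 67565 CPM in CL097 libraries. The gene called lower was Rpl39, from 234 ± 44.8 to 157 ± 14.9 CPM (-0.56, SE 0.09). The 3 called higher had few reads: Rpl34, with 1.93 ± 0.437 CPM in unstimulated cells, rose by 1.48 (SE 0.29), Rpl30 by 0.92 (SE 0.25) and Rps27 by 0.78 (SE 0.25). Ribosomal protein genes have many near-identical copies, so these 3 values are uncertain, and the part of shared reads in them was not tested. With no filter on low values 0 ribosomal protein genes were called higher. Normalized log2 CPM compares relative levels within a library, so these values do not give the amount of ribosomal protein mRNA per cell.

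**Figure D4:**
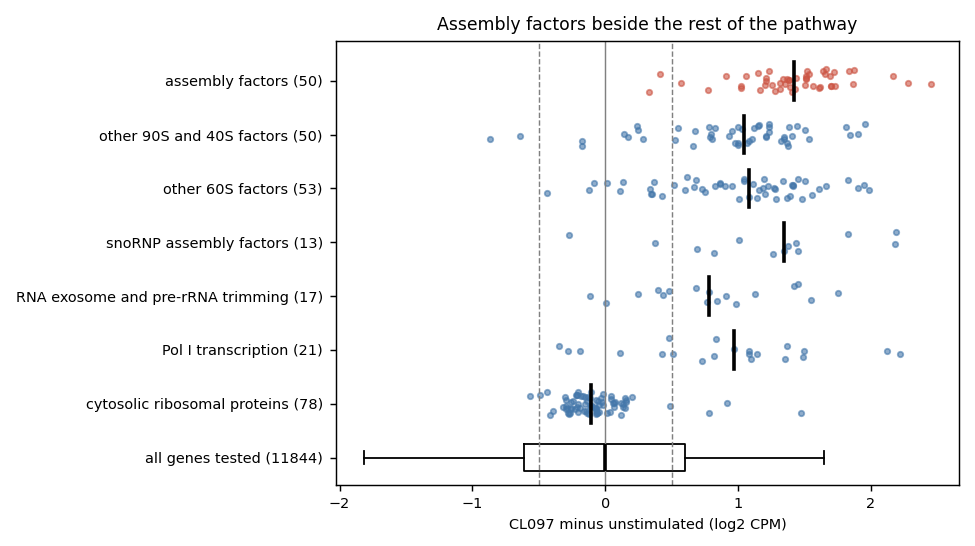
CL097 minus unstimulated difference on the log2 CPM scale for the assembly factors (red), 6 further lists of the pathway (blue) and all tested genes (box from the lower to the upper quartile, whiskers from the 5th to the 95th percentile); each point is a gene, black bars are medians and the number of genes is given in brackets. The points of the assembly factors lie to the right of 0, and those of cytosolic ribosomal proteins gather near 0.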

How the data were processed

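RNA of 6 libraries (3 unstimulated, 3 CL097) was sequenced after preparation with a stranded mRNA kit. Per the submitters' processing notes, reads were trimmed (Trim Galore 0.6.5), checked (FastQC 0.11.7), aligned to mm10 (STAR 2.6.1a) and counted per gene (featureCounts in Subread 2.0.1). The authors deposited log2 CPM per gene symbol after voom with quantile normalization, 1 file per library. Which annotation and strand setting the counting used is not given in the sources used here. Among 17935 genes with any variation, 2655 to 3108 took an identical value in both libraries of a number, against 347 to 404 for libraries of different numbers. Whether a shift shared within a number was applied before deposit was not tested, and it would leave the differences within pairs as they are.

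Genes with at least 0.5 CPM in at least 3 libraries were tested (11844). A linear model of group and replicate number was fitted to the deposited log2 values in limma 3.58.1 (R 4.3.3), with moderated variances and a mean-variance trend, and p-values (two-sided) were adjusted by Benjamini-Hochberg over all tested genes. The fit was tested on simulated data. P-values measure the spread between these samples, which may be technical in part. Cells of 3 mice were used in both conditions, but the labels do not tie a number to a mouse. Across genes, deviations from the mean of the group correlated between libraries of the same number (0.568, 0.326 and 0.458). Between libraries of different numbers the correlations ran from -0.485 to 0.209. Deviations within a group cancel out, so positive correlations for the same number push those between different numbers down. Part of this contrast is therefore built in. The part of a shift shared within a number in these correlations was not tested. The numbers were taken as pairs in the main fit, and a fit without the block is given beside it. Gene positions, exons and lengths come from GENCODE M21 (GRCm38, the assembly of mm10), counted from 1, and promoters from RefSeq (GRCm38.p6).

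The 50 genes and all lists were chosen with earlier results of these data known. Partners and relatives that were compared with each other were also picked with their differences known. Their counts of pairs are a description only. Values in every library were given for the genes with the largest and smallest difference in each role, those not called and the 3 with the highest level per length after CL097. From each other pathway list up to 2 called genes in each direction were named, except that all 3 ribosomal protein genes called higher were named after their values were seen. Myc, B cell and erythroid markers, partners on the other strand and the remaining assembly factors were named beside them. Of the other marker lists, NK cell genes had 0 called higher and 2 lower of 5 tested, monocyte and macrophage genes 0 and 5 of 9, neutrophil genes 0 and 3 of 6, dendritic cell genes 1 and 1 of 5, plasma cell genes 1 and 3 of 6, and T cell genes 2 and 1 of 5. Alternatives were the fit without the block, each number left out, other filters, scalings and variance models, and log2(CPM + 1).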

Additional observations from a re-analysis of the deposited data

How the results depend on the processing

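Of the 50 assembly factors the same 48 were called higher and 0 lower under each of the 11 alternatives, and no difference changed sign. Without the replicate block 48 were called, at a median of 1.42, and over all genes 2837 were higher and 2799 lower, against 3064 and 3057 with it; leaving out the block changed no call of an assembly factor. Leaving out 1 number from both conditions is the same as leaving out 1 library in a paired fit, and gave medians of 1.41 to 1.46. Cyclic loess gave a median of 1.40 and a shift of each library to a common median gave 1.43. Both were applied to values that were already quantile normalized, so they could change little. Quantile normalization itself could not be varied, because the values used here are not counts. Counts of the other pathway lists stayed within 1.5 times of their values except for cytosolic ribosomal proteins. Of these, 0 were higher with no filter on low values, where 17935 genes were tested, and 2 were lower with cyclic loess, where the cause was not tested. With 1 number left out, 1 to 2 were lower, the higher count without number 2. Depth is unknown, so no counting error can be given for genes of few reads, and 3 pairs cannot bring an exact test under p = 0.25.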
